A study of Homo sapiens with 4 samples.

Results

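The genes described here encode GPER1, the numbered orphan receptors and the adhesion receptors among human G protein-coupled receptors. Members were the protein-coding genes whose symbol was GPER1, was GPR followed by digits alone, or began with ADGR, which gave 103 of the 58735 genes in the table: GPER1, 73 GPR genes and 29 ADGR genes. GPER1 was chosen by its large difference in these same counts between KO and WT libraries, so that difference is given as a description with no test, while the other members entered by symbol alone, although the set was put together with results of the same comparison in view. RNA was sequenced from 2 libraries of H1299 cells made TTC28 knockout by CRISPR/Cas9 editing (KO) and 2 libraries of wild-type H1299 cells (WT), all labelled untreated and grown in the same serum-containing medium. H1299 is an established human non-small cell lung cancer line. The labels do not say whether the KO cells are 1 clone or a pool, nor whether replicates came from separate cultures, so p-values measure only the spread between these libraries.

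G protein-coupled receptors span the plasma membrane several times and pass signals on mainly through heterotrimeric G proteins, receptor kinases and arrestins. GPER1 binds estrogens at membranes and is known for raising cAMP and for activating the EGF receptor pathway, separately from the nuclear estrogen receptors. Orphan receptors are those named before a natural ligand was known, and a few proteins with GPR symbols act inside the cell rather than as surface receptors. Adhesion receptors carry long extracellular parts that bind matrix or neighbouring cells, and most are cleaved close to the membrane so that the exposed end can act as a tethered ligand.

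The libraries held 28885443 and 25120500 counts in KO replicates 1 and 2, and 25808423 and 27043491 counts in WT replicates 1 and 2. TTC28 was at 2.96 and 2.99 FPKM (fragments per kilobase and library size) in KO libraries, against 4.88 and 5.44 FPKM in WT libraries, so its transcript was lower but still present and the edited stretch itself was not examined. Mitochondrially encoded genes took 8.61% and 10.2% of counts in KO libraries, against 6.07% and 5.87% in WT libraries, and the part of this in the results was not tested. The epithelial keratins KRT8 and KRT18 and the mesenchymal VIM were abundant, with KRT18 at 170 and 161 FPKM in KO libraries and 144 and 138 FPKM in WT libraries, while EPCAM, CDH1 and the keratin KRT19 stayed at or below 0.214 FPKM. The mesenchymal FN1 was at 1.19 and 1.35 FPKM in KO libraries and 3.08 and 3.38 FPKM in WT libraries, where VIM and CDH2 were higher in KO. The lung lineage markers were near 0, with SFTPC at 0 counts in all 4 libraries and the summed level of 4 markers at or below 0.109 FPKM. Summed marker levels were at or below 0.174 FPKM for 5 leukocyte genes, at or below 0.124 FPKM for 3 endothelial genes and at or below 0.552 FPKM for 4 fibroblast genes. Of 4 neuronal and neuroendocrine genes, summed at 8.87 and 9.08 FPKM in KO libraries and 11.2 and 11.2 FPKM in WT libraries, ENO2 made up most. SYP was at 0.385 and 0.306 FPKM in KO libraries, against 0.995 and 1.08 FPKM in WT libraries. CHGA was at 0 and 0.0264 FPKM in KO libraries, against 0.197 and 0.201 FPKM in WT libraries. RBFOX3 stayed at or below 0.0446 FPKM.

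Most of these receptors were not expressed above the level used for testing. Of the 103 genes, 23 (22.3%) had at least 1 FPKM in at least 2 of the 4 libraries and were tested, against 10795 of 19951 protein-coding genes (54.1%). The tested genes were GPER1, 16 of the 73 GPR genes and 6 of the 29 ADGR genes. No read was counted in any library for 25 members (24.3%), 20 GPR and 5 ADGR genes, against 16.9% of all protein-coding genes, and a count of 0 over the 4 libraries allows up to 0.0281 CPM. Among the genes at 0 were GPR12 and GPR6, the closest relatives of GPR3. A further 41 members had 1 to 49 counts summed over the libraries, and 14 had at least 50 counts but stayed under the filter. The number of members with any count was 64 in each KO library, against 67 and 65 in WT libraries. Intervals and limits of this kind cover counting error only.

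**Figure D1:**
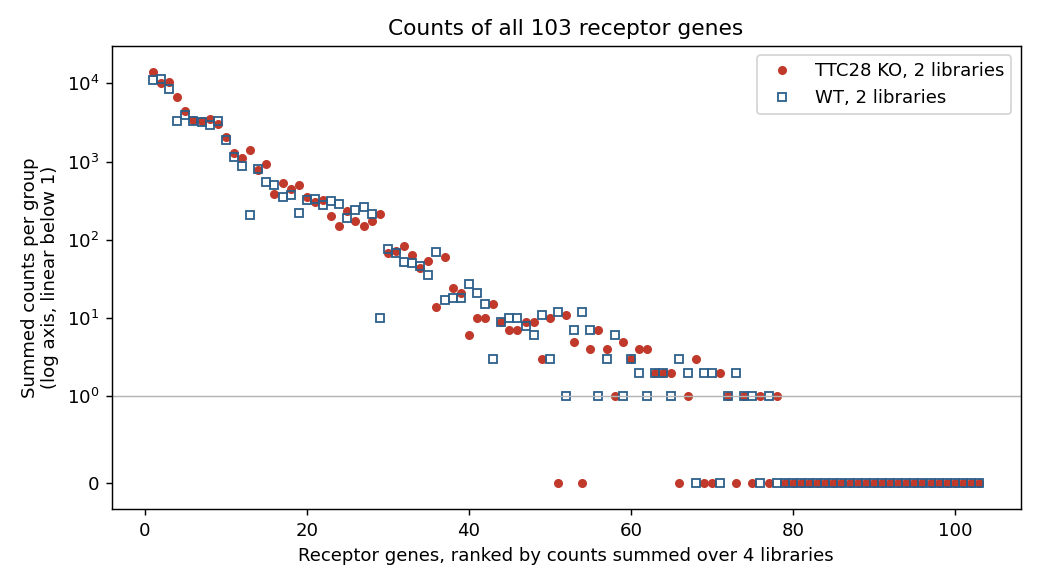
Counts of the 103 receptor genes summed over the 2 KO libraries (filled circles) and the 2 WT libraries (open squares), with genes ranked by their total on the x axis and counts on a log axis that is linear below 1. Most genes had similar sums in both groups, GPER1 and ADGRB3 stood out with low WT sums, and 25 genes had no count in any library.

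Gene structure and upstream sequence are described by whether a gene was tested and by its counts; most members that were not tested still had counts. Among GPER1 and the GPR genes, 5 of the 45 with 1 coding exon in GENCODE release 29 were tested (11.1%), against 12 of the 29 with more coding exons (41.4%). The ADGR genes all had several coding exons, from 7 to 90, and the tested ones from 19 to 30. RefSeq upstream sequence (GRCh38.p14) was matched by symbol for 74 of the 103 members. In the 250 bases before the start, the median number of CpG dinucleotides was 23 for 16 tested members, 23.5 for 10 members under the filter with at least 50 counts, 4.5 for 26 members with 1 to 49 counts and 6 for 22 members at 0, against 11 over 27305 promoters. GPR12 was at 0 counts with 42 such dinucleotides, so the ranges overlapped.

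**Figure D2:**
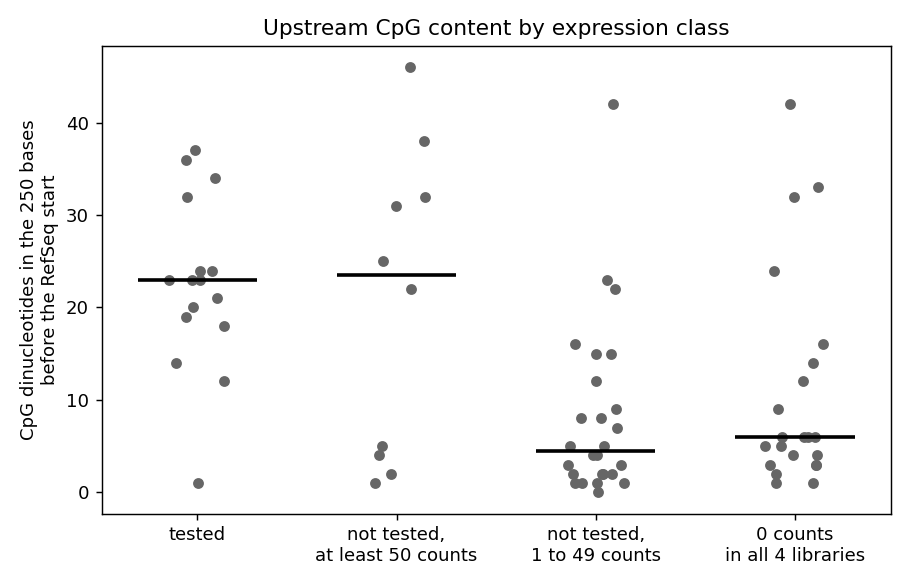
Number of CpG dinucleotides in the 250 bases before the RefSeq start (y axis) for each matched member (points), by expression class, with the class median as a bar. The median was 23 in tested members and 6 in members at 0 counts, and both classes reached high and low values.

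Upstream stretches of 3 members are shown to set a tested gene that fell (GPR3), a gene detected nearly only in KO libraries (ADGRB3) and a gene at 0 counts (GPR174) beside each other. Each is on the plus strand, is written 5′ to 3′ with CpG dinucleotides in capitals, and is the longest run of its window of 250 bases that holds no exon annotated by GENCODE release 29. The GPR3 stretch is chr1:27392372-27392621, the ADGRB3 stretch chr6:68635162-68635281 and the GPR174 stretch chrX:79144438-79144662.
GPR3: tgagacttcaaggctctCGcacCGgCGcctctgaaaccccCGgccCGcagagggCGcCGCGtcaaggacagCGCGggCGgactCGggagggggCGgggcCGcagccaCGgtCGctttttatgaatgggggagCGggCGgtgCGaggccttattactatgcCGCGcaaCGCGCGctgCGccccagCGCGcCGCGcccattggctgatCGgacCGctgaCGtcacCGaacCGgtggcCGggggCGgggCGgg
ADGRB3: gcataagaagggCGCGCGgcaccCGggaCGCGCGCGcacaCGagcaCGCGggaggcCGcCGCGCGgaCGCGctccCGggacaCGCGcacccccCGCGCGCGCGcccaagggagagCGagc
GPR174: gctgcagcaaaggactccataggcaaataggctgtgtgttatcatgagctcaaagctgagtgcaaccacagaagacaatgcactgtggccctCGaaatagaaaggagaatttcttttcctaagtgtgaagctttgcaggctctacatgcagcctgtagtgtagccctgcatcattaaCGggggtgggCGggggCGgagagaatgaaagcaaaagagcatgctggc
The full windows of 250 bases held 37 CpG dinucleotides for GPR3, 46 for ADGRB3, 5 for GPR174 and 18 for GPER1. The GPER1 window is wholly covered by annotated exons and is not printed. Of 3 motifs searched on both strands, the cAMP response element TGACGTCA was present upstream of 2 of the 74 members, GPR3 and GPR6, against 1.77% of all promoters. The palindromic estrogen response element, searched in its full consensus, was in none of the 74, against 0.0439% of all promoters, and the E-box CACGTG was upstream of GPR45 alone, against 6.49%. The motifs share short runs of letters, such as ACGT in the cAMP response element and the E-box, and a match is not a binding site.

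GPER1 (ENSG00000164850, hg38 chromosome 7, 1082208 to 1093815, plus strand) had the largest difference of the tested members. It was at 8.66 and 8.57 FPKM in KO replicates 1 and 2, from 760 and 659 counts, against 1.19 and 1.31 FPKM in WT replicates 1 and 2, from 98 and 112 counts. Both KO libraries lay far above both WT libraries, and the replicates of each group were close together. In bulk RNA, fewer cells with a transcript and less of it per cell cannot be told apart, here and below. The log2 fold change was 2.79 (SE 0.121), 6.91-fold higher in KO, at rank 24 of 13079 tested genes by rise. GPER1 was 9th by level among the members in KO cells and 20th in WT cells, and its share of the members' summed FPKM was 3.83% in KO and 0.671% in WT.

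Of the genes around GPER1 none differed by as much, and they went in both directions. SUN1, a nuclear envelope protein, rose by 0.59 (SE 0.0648, adjusted p = 9.02e-06 in edgeR), and COX19, a mitochondrial copper protein, fell by 0.83 (SE 0.0832, adjusted p = 3.7e-06). GPER1 shares no exonic base with another gene in GENCODE release 29, but lies within the span of C7orf50 on the opposite strand, and whether counting used strand is not stated in the sources. C7orf50 fell by 0.48 on the log2 scale (SE 0.0845, adjusted p = 0.000411 in the edgeR test, Benjamini-Hochberg adjusted). The nearest other member, GPR146 (chromosome 7, 1044576 to 1059261), a receptor linked to cholesterol metabolism in mice, was under the filter with 40 and 31 counts in KO libraries and 38 and 30 counts in WT libraries, a ratio of 1.07 (95% exact Clopper-Pearson interval 0.756 to 1.51). The median log2 fold change of the 25 tested genes on each side of GPER1 was -0.21, and GPER1 stood at 3 with that median removed.

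Of the 22 tested members other than GPER1, 10 rose, 2 fell and 10 missed the threshold, an adjusted p under 0.05 (Benjamini-Hochberg) over 13079 genes in edgeR. Over all tested genes 50.3% passed, 25.1% higher and 25.2% lower in KO. Among the 22 members 54.5% passed, 45.5% higher and 9.09% lower. Without GPR155 as well, which passed the filter only through its KO values, 9 of 21 rose and 2 fell, 52.4% in all. Groups did not overlap for 16 of the 22 (72.7%), against 75.5% of all tested genes. The median log2 fold change was 0.20 over the 22, with 0.00 over all tested genes. Of the 22 members, 2 differed by 2-fold or more, GPR155 being 1 of them, against 5.21% of all tested genes. The typical difference between replicates was small, with a median size on the log2 scale of 0.09 between KO libraries and 0.12 between WT libraries for the 23 tested members. The largest differences between replicates were 0.60 in KO, for GPR153, and 0.30 in WT, for GPR155. Scaling mattered for the small rises: on a TPM scale, which moved the median over tested genes to -0.16, 4 of the 22 rose and 3 fell.

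**Figure D3:**
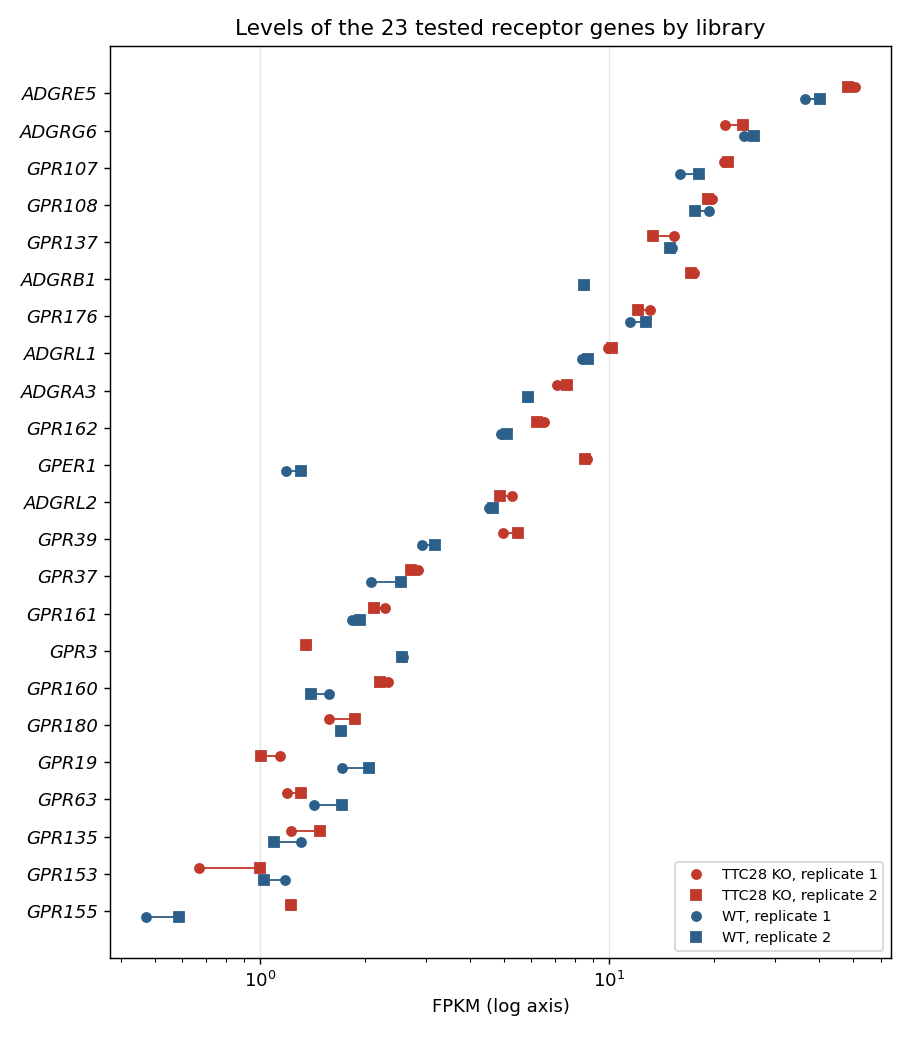
FPKM on a log axis for the 23 tested members in KO libraries (red, upper of each pair) and WT libraries (blue), with a line joining the replicates of a group. GPER1, ADGRB1, GPR39 and GPR155 had both KO libraries well above both WT libraries, and GPR3 and GPR19 had them below.

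Among the adhesion receptors, ADGRB1 changed most of the tested ones, and 4 of 6 rose while none fell (66.7% called, against 50.3% of all tested genes). On the TPM scale 3 of the 4 rises did not pass and ADGRG6 was called lower. ADGRB1, also called BAI1, recognises phosphatidylserine on dying cells and carries thrombospondin repeats. It was at 17.5 and 17.2 FPKM in KO libraries, against 8.46 and 8.48 FPKM in WT libraries. The groups were well apart, with replicates nearly equal, and ADGRB1 rose 2.05-fold (log2 fold change 1.04, SE 0.0612, adjusted p = 4.53e-08 in the edgeR test, Benjamini-Hochberg adjusted). With the median of its neighbours removed its log2 fold change was 1.03.

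ADGRE5 was the most abundant receptor of the whole set. Known as CD97, it binds CD55 and is common on leukocytes and carcinoma cells. It was at 50.7 and 48.5 FPKM in KO libraries, against 36.5 and 40.2 FPKM in WT libraries. Both KO libraries were above both WT libraries, with a log2 fold change of 0.37 (SE 0.0649, adjusted p = 0.00036, edgeR, Benjamini-Hochberg adjusted). ADGRA3, also called GPR125, a receptor linked to Wnt signalling and planar cell polarity, was at 7.09 and 7.57 FPKM in KO libraries, against 5.85 and 5.88 FPKM in WT libraries. Its groups did not overlap either, and its log2 fold change was 0.32 (SE 0.0695, adjusted p = 0.0017 in the same edgeR fit). Neither ADGRE5 nor ADGRA3 passed on the TPM scale, at adjusted p = 0.0771 and adjusted p = 0.115 in limma.

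The latrophilins ADGRL1 and ADGRL2, which bind teneurins and FLRT proteins on other cells, differed little. ADGRL1 was at 9.93 and 10.2 FPKM in KO libraries and 8.40 and 8.70 FPKM in WT libraries, a log2 fold change of 0.24 (SE 0.0630, adjusted p = 0.00688 in edgeR, Benjamini-Hochberg adjusted), which did not pass without WT replicate 1 (adjusted p = 0.0818), on the TPM scale or with the local median removed. ADGRL2 was at 5.27 and 4.89 FPKM in KO libraries and 4.55 and 4.65 FPKM in WT libraries, and its log2 fold change of 0.15 (SE 0.0796) did not pass, but did with the local median removed, at 0.27 (adjusted p = 0.0128 in edgeR). The KO values of both were above the WT values, by margins close to the distance between replicates for ADGRL2. ADGRG6, also called GPR126, which Schwann cells need for myelination in mice and zebrafish, was the second most abundant member. It was at 21.5 and 24.2 FPKM in KO libraries and 24.3 and 26.1 FPKM in WT libraries, a log2 fold change of -0.14 (SE 0.0718) that did not pass. Without KO replicate 2 it passed, at -0.23 (adjusted p = 0.0103 in edgeR), as it did with total-count scaling and on the TPM scale.

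**Figure D4:**
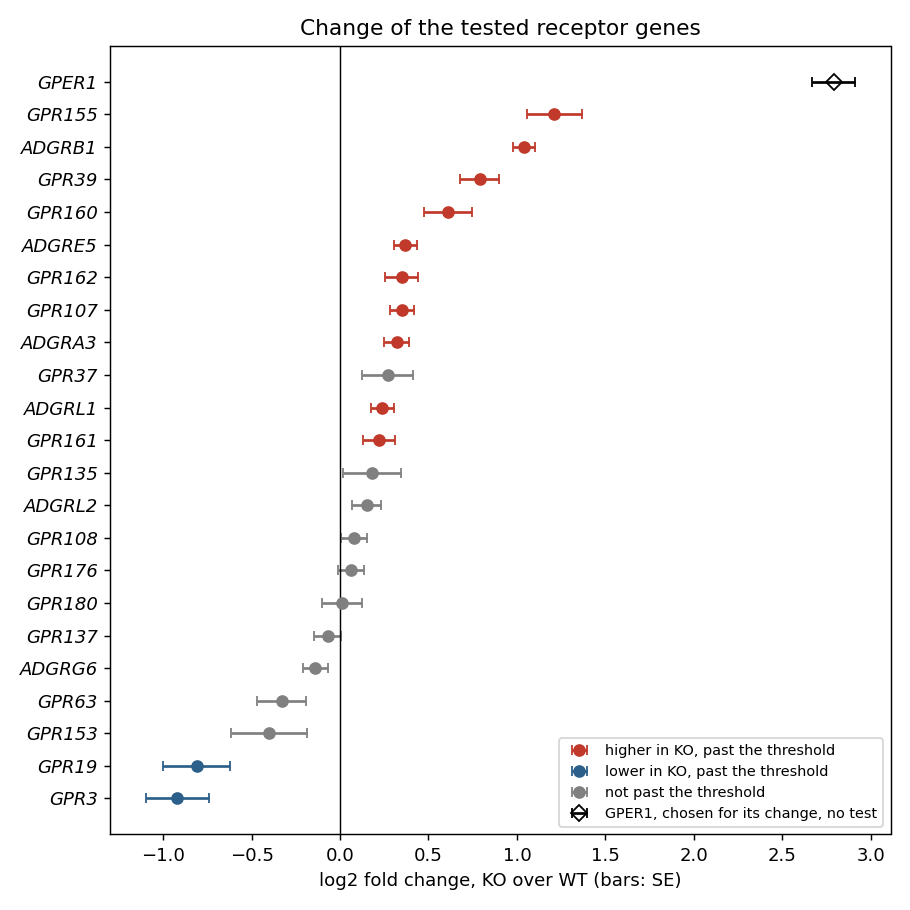
Log2 fold change, KO over WT, for the tested members (points) with standard errors (bars), coloured by whether the change passed the threshold over all tested genes. GPER1 is drawn as an open diamond, since it was chosen for its change. Of the other members 10 were higher, 2 lower and 10 did not pass. The higher ones include GPR155, which passed the filter only through its KO values.

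The 5 further ADGR genes with at least 50 counts were under the filter, and 3 of them had intervals of the ratio away from 1. ADGRB3, also called BAI3, which binds C1q-like proteins at synapses in mice, had 126 and 86 counts in KO libraries, against 5 and 5 counts in WT libraries. It was close to absent in both WT libraries and clearly present in both KO libraries, at 0.620 FPKM on average in KO, a ratio of scaled counts of 21.7 (95% exact interval 11.6 to 45.9). Leaving out 1 library at a time gave ratios from 18.9 to 24.1. ADGRF1, also called GPR110, had 7 and 7 counts in KO libraries, against 31 and 38 counts in WT libraries, a ratio of 0.208 (0.108 to 0.373). ADGRG1, also called GPR56, a receptor for collagen III, had 112 and 88 counts in KO libraries, against 147 and 162 counts in WT libraries, a ratio of 0.663 (0.552 to 0.794). In both genes each KO library was below each WT library. The ratio was 0.940 (0.802 to 1.10) for ADGRB2. For ADGRA2, known as GPR124 and required for vessel growth in the mouse brain, it was 0.824 (0.670 to 1.01), with 108 and 65 counts in KO libraries and 83 and 132 counts in WT libraries. The ADGRA2 libraries of each group were far apart, its ratio came to 1.04 without WT replicate 2, and 23.1% of its exonic bases are shared with BRF2 on the opposite strand.

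The 16 tested GPR genes held 6 that rose, 2 that fell and 8 that did not pass, 50% called against 50.3% of all tested genes. The 6 rises and the 50% include GPR155. GPR155, a lysosomal membrane protein that senses cholesterol, was at 1.22 and 1.23 FPKM in KO libraries, against 0.472 and 0.586 FPKM in WT libraries. The KO replicates were nearly equal and well above WT, 2.31-fold higher in KO (log2 fold change 1.21, SE 0.155). It is the 1 member that passed the filter through the KO libraries alone, so that it had to differ to be tested, and no p is given for it. GPR39, a zinc-sensing receptor, was at 4.99 and 5.49 FPKM in KO libraries, against 2.91 and 3.17 FPKM in WT libraries. Its groups did not overlap, with a log2 fold change of 0.79 (SE 0.111, adjusted p = 6.69e-05, edgeR, Benjamini-Hochberg adjusted). The median log2 fold change of its neighbours on chromosome 2 was 0.51, and GPR39 did not pass with that median removed, at 0.27 (adjusted p = 0.0571 in edgeR). GPR39 shares 34.8% of its exonic bases with LYPD1 on the opposite strand, which had 5 and 0 counts in KO libraries and 6 and 9 counts in WT libraries.

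Smaller rises were found for orphan receptors and for intracellular proteins. GPR160, an orphan receptor, was at 2.33 and 2.21 FPKM in KO libraries, against 1.58 and 1.40 FPKM in WT libraries. Its KO values lay above its WT values, with a log2 fold change of 0.61 (SE 0.134, adjusted p = 0.00196 in edgeR, Benjamini-Hochberg adjusted). GPR107, a protein of the Golgi apparatus and the most abundant GPR gene, was at 21.4 and 21.9 FPKM in KO libraries, against 16 and 18.1 FPKM in WT libraries. It rose by 0.35 on the log2 scale (SE 0.0672, adjusted p = 0.000829, edgeR), but did not pass on the TPM scale (adjusted p = 0.117 in limma). Its relative GPR108, at 19.8 and 19.2 FPKM in KO libraries and 19.3 and 17.7 FPKM in WT libraries, overlapped between the groups and did not pass. The difference between GPR107 and GPR108 was not tested. GPR162, an orphan receptor, was at 6.52 and 6.23 FPKM in KO libraries and 4.91 and 5.09 FPKM in WT libraries. Its log2 fold change was 0.35 (SE 0.0936, adjusted p = 0.00661, edgeR). It did not pass without WT replicate 1 (log2 fold change 0.33) or on the TPM scale (adjusted p = 0.0992 in limma). The neighbours of GPR162 on chromosome 12 had a median of -0.37. With that median removed its log2 fold change was 0.72 (adjusted p = 4.15e-05 in edgeR). GPR161, which restrains Hedgehog signalling in the primary cilium in mice, was at 2.28 and 2.12 FPKM in KO libraries and 1.84 and 1.94 FPKM in WT libraries. Its log2 fold change of 0.22 (SE 0.0880, adjusted p = 0.0497, edgeR) was just under the threshold and was lost under 12 of 17 alternative settings.

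The falls were in GPR3 and GPR19. GPR3, which activates adenylyl cyclase through Gs without a known ligand and holds oocytes in meiotic arrest, was at 1.36 and 1.36 FPKM in KO libraries, against 2.58 and 2.55 FPKM in WT libraries. The counts behind these values were 80 and 70 in KO libraries and 143 and 147 in WT libraries, with no overlap. GPR3 fell by 0.92 on the log2 scale (SE 0.177, adjusted p = 0.000758 in edgeR, Benjamini-Hochberg adjusted), and passed under each of its 17 alternative settings. GPR19, an orphan receptor, was at 1.14 and 1.01 FPKM in KO libraries, against 1.72 and 2.06 FPKM in WT libraries. It fell by 0.81 (SE 0.190, adjusted p = 0.00307, edgeR), and its groups did not overlap. Its neighbours on chromosome 12 had a median of -0.44, and GPR19 did not pass with that median removed, at -0.36 (adjusted p = 0.133 in edgeR).

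The other tested GPR genes did not pass. GPR137, a lysosomal membrane protein, and GPR176, a Gz-coupled receptor of the circadian centre in mice, were abundant. GPR137 was at 15.4 and 13.4 FPKM in KO libraries and 15.2 and 15 FPKM in WT libraries. GPR176 was at 13.1 and 12.1 FPKM in KO libraries and 11.5 and 12.8 FPKM in WT libraries. The groups overlapped in both. GPR37, a receptor for prosaposin, was at 2.84 and 2.72 FPKM in KO libraries and 2.08 and 2.54 FPKM in WT libraries, a log2 fold change of 0.27 (SE 0.143); its neighbours on chromosome 7 had a median of -0.27, and it passed with that median removed, at 0.54 (adjusted p = 0.00741 in edgeR). GPR63, GPR135, GPR153 and GPR180 were between 0.668 and 1.87 FPKM in all libraries, with log2 fold changes from -0.40 for GPR153 to 0.18 for GPR135. GPR153 had 1 KO library apart, at 0.668 and 1.00 FPKM in KO libraries against 1.18 and 1.03 FPKM in WT libraries, and passed without KO replicate 2, at -0.72 (adjusted p = 0.0193 in edgeR).

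Of the 9 GPR genes under the filter with at least 50 counts, GPR27 had the ratio farthest from 1. GPR27, an orphan receptor, had 24 and 36 counts in KO libraries, against 7 and 10 counts in WT libraries. Both KO libraries were above both WT libraries, at a ratio of 3.61 (95% exact interval 2.08 to 6.61). The interval also lay above 1 for GPR20, at 1.58 (1.01 to 2.49), and GPR157, at 1.26 (1.04 to 1.54). GPR20 was nearly equal in KO replicate 2 and WT replicate 2, at 0.568 and 0.557 FPKM. With no filter neither GPR20 nor GPR157 passed, at adjusted p = 0.244 and adjusted p = 0.23 in edgeR. The intervals of GPR55, GPR75, GPR141, GPR146 and GPR158 held 1. Over all 14 members of this kind, the interval lay above 1 for 5 and below 1 for 2, where 26.9% of 3593 such genes were above and 22.7% below.

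**Figure D5:**
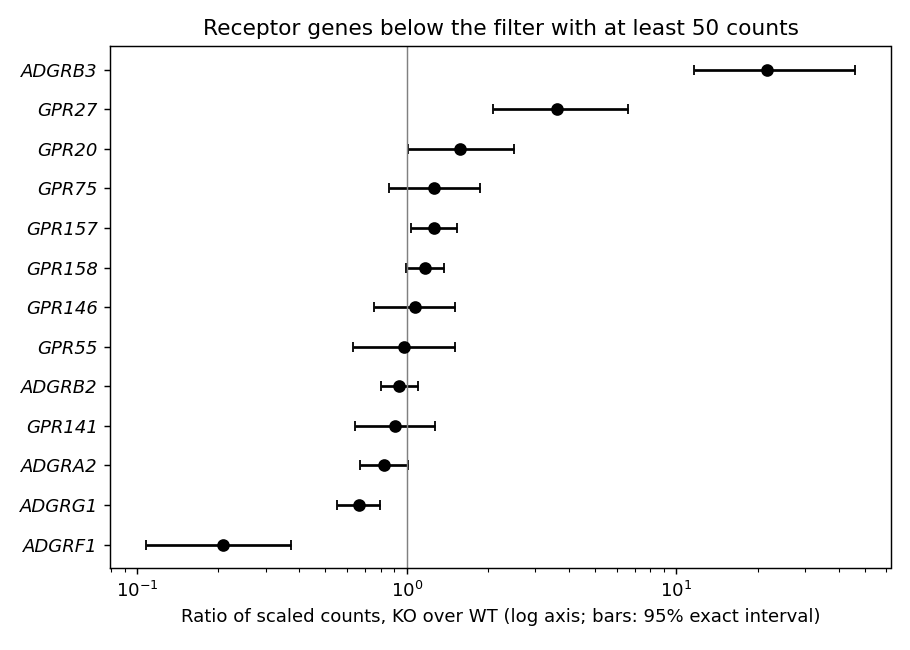
Ratio of scaled counts, KO over WT, on a log axis for 13 of the 14 members under the filter with at least 50 counts (points), with 95% exact Clopper-Pearson intervals (bars) that cover counting error only. ADGRB3 and GPR27 lay farthest above 1 and ADGRF1 farthest below.

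Members with 1 to 49 counts gave few usable ratios. GPR132, a receptor of immune cells, had 5 and 1 counts in KO libraries and 13 and 14 counts in WT libraries, a ratio of 0.228 (0.0768 to 0.563). GPR17 had 8 and 3 counts in KO libraries and 0 and 1 counts in WT libraries, a ratio of 11.3 (1.64 to 485). ADGRD2 had 6 and 9 counts in KO libraries and 0 and 3 counts in WT libraries, a ratio of 5.12 (1.45 to 27.6). These were the 3 intervals among the 41 genes that left out 1, and for 12 of the 41 a group was at 0. The intervals were not adjusted for the number of genes. With no filter GPR132 passed as lower (adjusted p = 0.0153 in edgeR), while GPR17 and ADGRD2 did not pass.

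The signalling partners of these receptors, taken from lists chosen with earlier results of these data known, changed in both directions, and the share called in each list stands beside 50.3% over all tested genes (25.1% higher, 25.2% lower). Among 18 tested G protein subunit genes, 5 were higher, 4 lower and 9 not past the threshold (50% called), with a median log2 fold change of 0.03. GNAS, the stimulatory alpha subunit that GPER1 and GPR3 use, was at 119 and 119 FPKM in KO libraries, against 102 and 100 FPKM in WT libraries (log2 fold change 0.23, SE 0.0680, adjusted p = 0.0116 in edgeR, Benjamini-Hochberg adjusted). GNG11 (0.48 ± 0.0800, log2 fold change ± SE) rose, and GNG5 (-0.52 ± 0.0905) and GNAI3 (-0.35 ± 0.0608) fell, GNAI3 not past the threshold with its local median removed (adjusted p = 0.158 in edgeR). Of 7 tested receptor kinase and arrestin genes, 2 were higher, 3 lower and 2 not past the threshold (71.4% called). The arrestins went opposite ways: ARRB1 was at 3.56 and 3.22 FPKM in KO libraries, against 0.864 and 1.15 FPKM in WT libraries, while ARRB2 was at 7.09 and 6.88 FPKM in KO libraries, against 10.9 and 10.4 FPKM in WT libraries. The groups did not overlap in either, and ARRB1 rose 3.37-fold where ARRB2 was 1.52-fold lower (adjusted p = 3.69e-05 in edgeR, Benjamini-Hochberg adjusted). ARRB1 was under 1 FPKM in WT replicate 1, so it reached the filter only with its KO values, and no p is given for it. The 2 higher genes and the 71.4% above include ARRB1. With the local median removed ARRB2 did not pass, at -0.16 (adjusted p = 0.112 in edgeR). Of 14 tested RGS genes and related regulators, which limit G protein signals, 6 were higher, 3 lower and 5 not past the threshold (64.3% called), with RGS10 at 0.78 ± 0.0669. The 6 higher and the 64.3% include RGS9, which also reached the filter only with its KO values. RGS9 was at 2.05 and 1.69 FPKM in KO libraries, against 0.906 and 1.08 FPKM in WT libraries. Of 17 tested genes of cAMP production and response, 5 were higher, 5 lower and 7 not past the threshold (58.8% called), with the cyclase ADCY6 at 0.67 ± 0.0745 and the kinase subunit PRKAR1B at -0.68 ± 0.0916. The 5 higher and the 58.8% include RAPGEF3, which passed the filter only through its KO values. RAPGEF3 was at 1.06 and 1.09 FPKM in KO libraries, against 0.739 and 0.836 FPKM in WT libraries.

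Nuclear estrogen receptor genes were barely detected beside GPER1. ESR1 had 9 and 7 counts in KO libraries and 6 and 8 counts in WT libraries, and ESR2 had 25 and 22 counts in KO libraries and 20 and 13 counts in WT libraries. GREB1, a target of the nuclear receptors, had 56 and 35 counts in KO libraries and 59 and 73 counts in WT libraries, and TFF1, another such target, had none in any library. Of 10 tested genes of the estrogen receptor and metabolism list, 5 rose, 1 fell and 4 did not pass, 60% called against 50.3% of all tested genes. That list was also chosen with earlier results of these data known. PGRMC1, a membrane component bound by heme and linked to progesterone (0.40 ± 0.0626), and HSD17B4, an enzyme that oxidises estrogens (0.44 ± 0.0644), rose.

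Of 8 tested ligands and partners of adhesion receptors, 5 rose, 1 fell and 2 did not pass, 75% called against 50.3% of all tested genes. The median log2 fold change was 0.47, beside 0.00 over all tested genes. The 8 came from a list of 25 genes chosen with earlier results of these data known, so share and median are descriptions only. TENM3, a teneurin that latrophilins bind, was at 3.15 and 3.23 FPKM in KO libraries, against 1.72 and 1.99 FPKM in WT libraries. It rose 1.72-fold (SE of the log2 value 0.0897, adjusted p = 1.2e-05 in edgeR, Benjamini-Hochberg adjusted), with no overlap. C1QL4, a C1q-like protein of the kind that ADGRB3 binds, was 1.71-fold higher at a mean of 15.8 ± 1.52 FPKM in KO and 9.29 ± 0.204 FPKM in WT (SD, n = 2 each). TGM2, the transglutaminase that ADGRG1 binds, fell to 5.97 ± 0.366 FPKM in KO, against 8.79 ± 0.131 FPKM in WT (SD, n = 2 each). CD55, the ligand of ADGRE5, was at 5.56 and 6.29 FPKM in KO libraries and 5.67 and 5.62 FPKM in WT libraries, and its groups overlapped. Beside the ADGR genes, the cadherin-type adhesion receptors CELSR1 and CELSR3, whose symbols lie outside the rule, did not pass, at -0.13 ± 0.0890 and -0.15 ± 0.0725.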

How the data were processed

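Total RNA of 4 samples was made into TruSeq RNA libraries (Illumina) and sequenced, per the labels' protocols. The submitters' processing notes name HISAT2 2.0.5 and the build hg38. Which program counted reads, with or without strand and on which annotation, is not given in the sources used. The authors deposited 1 table with raw counts per gene and library, FPKM, the gene length, each group's mean signal from scaled counts, and a log2 fold change with its p-value and adjusted p-value from a test whose tool the file headers do not name. The authors' deposited table put 11 of the 23 tested members under an adjusted p of 0.05, all of them also past the threshold here. GPR161 and GPR162, past the threshold here, were not under it there, at adjusted p = 0.259 and adjusted p = 0.0593 in the authors' test. A further 3 members that were not tested here were under it there, ADGRB3, ADGRF1 and GPR27.

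The 13079 genes that reached 1 FPKM in 2 or more libraries were tested on the counts with edgeR 4.0.16 under R 4.3.3 (TMM factors 0.978 to 1.02, quasi-likelihood test, two-sided, no covariates, Benjamini-Hochberg adjustment over all 13079, threshold 0.05). Standard errors are those of this fit (median 0.0885 over tested genes). An exact permutation test of 2 against 2 libraries cannot pass the threshold and was not made. Members with at least 50 counts under the filter were described by the ratio of summed counts scaled to effective library size. The members and the gene lists were chosen with earlier results of these data known. Each tested member, the low members with at least 50 counts, and up to 3 genes per list with the smallest p were to be named; GNAS, CD55, the members with 1 to 49 counts and the estrogen receptor genes were named after their values were seen. Some genes under these rules are not reported here. All 103 members have identical coordinates in GENCODE release 29. Alternatives were filters of 0.1, 5 or no minimum FPKM and filterByExpr, median-of-ratios and total-count scaling, DESeq2 1.42.0, limma 3.58.1 on log2 FPKM (pseudocounts of 1 and 0.1) and on log2 TPM, robust shrinkage, protein-coding genes alone, leaving out each library, a replicate block, and removal of the median of 25 tested genes on each side (the local median). The tests were tried on simulated data.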

Additional observations from a re-analysis of the deposited data

How the results depend on the processing

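GPER1 kept its direction under all 18 alternatives, at log2 fold changes from 2.1 to 3. Without GPER1, 10 members rose and 2 fell. The count that rose was 6 with a filter of 5 FPKM and 4 on the TPM scale, and from 9 to 11 under the other settings that kept all libraries. The count that fell was 4 with a filter of 0.1 FPKM, 0 with 5 FPKM, 7 with no filter, 5 with filterByExpr, 4 with total-count scaling and 1 with the local median removed, where the first 4 settings change which genes are tested. With no filter, ADGRB3 and GPR27 also passed as higher, and ADGRG1, ADGRF1 and GPR132 were among those that passed as lower. Leaving out 1 library at a time gave 7 to 10 members higher and 2 to 4 lower; without KO replicate 2, ADGRG6 and GPR153 were added to the falls, and without WT replicate 1, ADGRL1, GPR162 and GPR161 no longer passed. The lone library of a group is there assumed to vary like the others. Same-numbered libraries did not deviate together (correlation 0.0189 across genes). With 2 libraries per group this cannot tell whether same-numbered libraries were paired. With a replicate block 10 members rose and 3 fell, GPR63 being added at adjusted p = 0.0488 in edgeR. On the TPM scale 25.5% of the called genes were higher, against 49.9% in edgeR, and with total-count scaling 40%, where the median of all tested genes moved by -0.07. No called member reversed under any alternative run. The cause of these differences between scalings was not tested. Depth limits the 41 members with 1 to 49 counts, for which ratios span wide intervals.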

Other observations

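Receptors with named ligands, a list outside the rule for members, had 27 of 63 genes tested. Of these 13 rose, 6 fell and 8 did not pass (70.4% called, against 50.3% of all tested genes). The median log2 fold change was 0.28, beside 0.00 over all tested genes. This list too was chosen with earlier results of these data known, so its share and median are descriptions only. The 13 rises include S1PR5, which reached the filter only with its KO values. S1PR5 was at 2.29 and 1.97 FPKM in KO libraries, against 0.966 and 1.11 FPKM in WT libraries. VIPR1, a Gs-coupled receptor for vasoactive intestinal peptide, was at 3.82 and 3.65 FPKM in KO libraries, against 1.41 and 1.12 FPKM in WT libraries, and the lysophosphatidic acid receptor LPAR1 was at 3.30 and 3.26 FPKM in KO libraries, against 1.39 and 1.32 FPKM in WT libraries. NTSR1, the neurotensin receptor, was lower, at 6.35 and 6.45 FPKM in KO libraries, against 14 and 15.2 FPKM in WT libraries. The Benjamini-Hochberg adjusted p from edgeR was 2.73e-07 for VIPR1, 3.05e-06 for LPAR1 and 9.82e-08 for NTSR1, each with groups that did not overlap.

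A further list held orphan receptors and other receptor-like proteins whose symbols lie outside the rule, and was also chosen with earlier results of these data known. Of its 7 tested genes, 1 rose, 1 fell and 5 did not pass (28.6% called, against 50.3% of all tested genes). GPRC5A, a retinoic acid-induced receptor of lung epithelium, was at 7.28 and 8.20 FPKM in KO libraries, against 14.8 and 15.4 FPKM in WT libraries, 1.95-fold lower (adjusted p = 3.03e-07, edgeR). Its log2 fold change of -0.96 became -0.52 with the local median removed (adjusted p = 6.71e-05 in edgeR). GPR137B, a lysosomal relative of GPR137, was at 3.84 and 5.44 FPKM in KO libraries, against 2.61 and 3.10 FPKM in WT libraries (adjusted p = 0.0041, edgeR). GPR89A and GPR89B are near-identical copies that can share reads, so their values are uncertain.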
